A study of Homo sapiens with 4 samples.

Results

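The genes of DNA replication licensing and of the replication fork were followed in SK-MEL-28, an established human melanoma cell line, with and without doxycycline (Dox)-inducible MYC. The 41 genes were taken by name, from origin recognition to DNA ligation, and all 41 were found among the 25268 gene symbols of the deposited table. Cells had been transduced with a lentiviral pTRIPZ vector, either empty (vector line, vector cells) or carrying MYC behind a Tet-inducible promoter (MYC-inducible line, MYC cells). Both lines were kept in medium with G418, and each was grown without Dox or with Dox for 54 h, which gave 4 conditions. Each condition has 1 library, and whether a line was a pool or 1 clone is not stated in the sources used here. Differences therefore cannot be checked against replicates, and p-values are not given. Values are FPKM, the fragments of a gene scaled to its transcript length and to the fragments of the library. Where 4 values are listed, they run from untreated and Dox-treated vector cells to untreated and Dox-treated MYC cells. Changes are differences of log2(FPKM + 0.1), and they were set beside those of the 11147 genes whose mean reached 1 FPKM.

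Replication starts at origins that are bound by the origin recognition complex (ORC). In G1 phase, ORC, CDC6 and CDT1 load the MCM2-7 helicase onto DNA, which licenses the origin, and geminin (GMNN) blocks reloading by binding CDT1 later in the cycle. In S phase, CDC45 and the GINS complex join MCM2-7 to make the active helicase, polymerase α-primase lays primers, polymerases δ and ε extend them with the PCNA clamp, and FEN1 and LIG1 join the lagging strand pieces. Many of these genes are known targets of E2F transcription factors, which are released from RB proteins as cells enter S phase. MYC is known as a driver of cell growth and of entry into the cell cycle.

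The libraries held approximately 34700000 to 41600000 fragments, as estimated from genes with very low values. MYC, the induced gene, had 58.3 FPKM in untreated vector cells, 54.8 FPKM in Dox-treated vector cells, 76.5 FPKM in untreated MYC cells and 87.1 FPKM in Dox-treated MYC cells, a log2 change with Dox of -0.09 in vector cells and 0.19 in MYC cells. The table does not separate the transgene from the cells' own MYC. All 7 melanocyte markers examined were present, between 14.2 and 6227 FPKM. Their summed level was 7771 to 7911 FPKM in 3 libraries and 4414 FPKM in Dox-treated MYC cells. Of 9 markers of immune, endothelial, epithelial and fibroblast cells, 8 had a mean under 1 FPKM, with KRT5 at 0 throughout, and the summed level was 0.999 to 1.17 FPKM in 3 libraries and 3.07 FPKM in Dox-treated MYC cells. The remaining one, EPCAM, had 0.658 to 0.769 FPKM in 3 libraries and 2.71 FPKM in Dox-treated MYC cells. The part of these shifts in the values below was not tested.

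None of the 41 replication genes changed by 1.5-fold under Dox in MYC cells. Across all genes tested, 14.7% did so, 5.9% upward and 8.85% downward. The largest differences were 1.35-fold, for ORC2, and 0.760-fold, for GINS4. At a lower threshold, a log2 change of 0.32 in size, 7 replication genes were higher with Dox (ORC2, MCM10, PRIM1, POLD1, POLD2, POLE2 and RFC3) and 1 was lower (GINS4). The same threshold was passed upward by 16.9% and downward by 21.4% of all genes tested. With library sums made equal, 4 were higher (ORC2, PRIM1, POLE2 and RFC3) and 2 lower (MCM5 and GINS4), so MCM10, POLD1 and POLD2 no longer passed it and MCM5 did. Median ratio scaling instead gave 8 higher, with ORC5 added, and 1 lower (GINS4). The median log2 change of the 41 genes was 0.07, against -0.03 over all genes tested. The median size of the change, whatever its direction, was 0.15 for the replication genes and 0.24 for all genes tested. The replication genes had a median level of 27.5 FPKM, against 9.85 FPKM over all genes tested. These comparisons were not matched for level. With Dox, 28 of the 41 were higher and 13 lower, while 46.8% of all genes tested were higher.

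In vector cells, the log2 changes with Dox lay between -0.12 and 0.11, with a median of 0.01 that became -0.00 with library sums made equal. No replication gene passed the lower threshold there, as against 4.08% of all genes tested, and 1.15% of all genes tested passed 1.5-fold. The untreated lines also differed little in these 41 genes, while MYC itself stood higher in untreated MYC cells by a log2 difference of 0.39. Untreated MYC cells stood above untreated vector cells in 32 of the 41 genes, against 59.5% of all genes tested, with a median log2 difference of 0.06. The largest of these differences was 0.23, for MCM7, and none passed the lower threshold, against 3.61% of all genes tested. Subtracting the vector change from the MYC-inducible change gave a median of 0.10. By this measure 5 genes stood higher by at least 0.32 and 2 lower, where all genes tested gave 16.2% and 22.6%. This contrast between lines was not tested, and the comparisons share libraries.

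**Figure D1:**
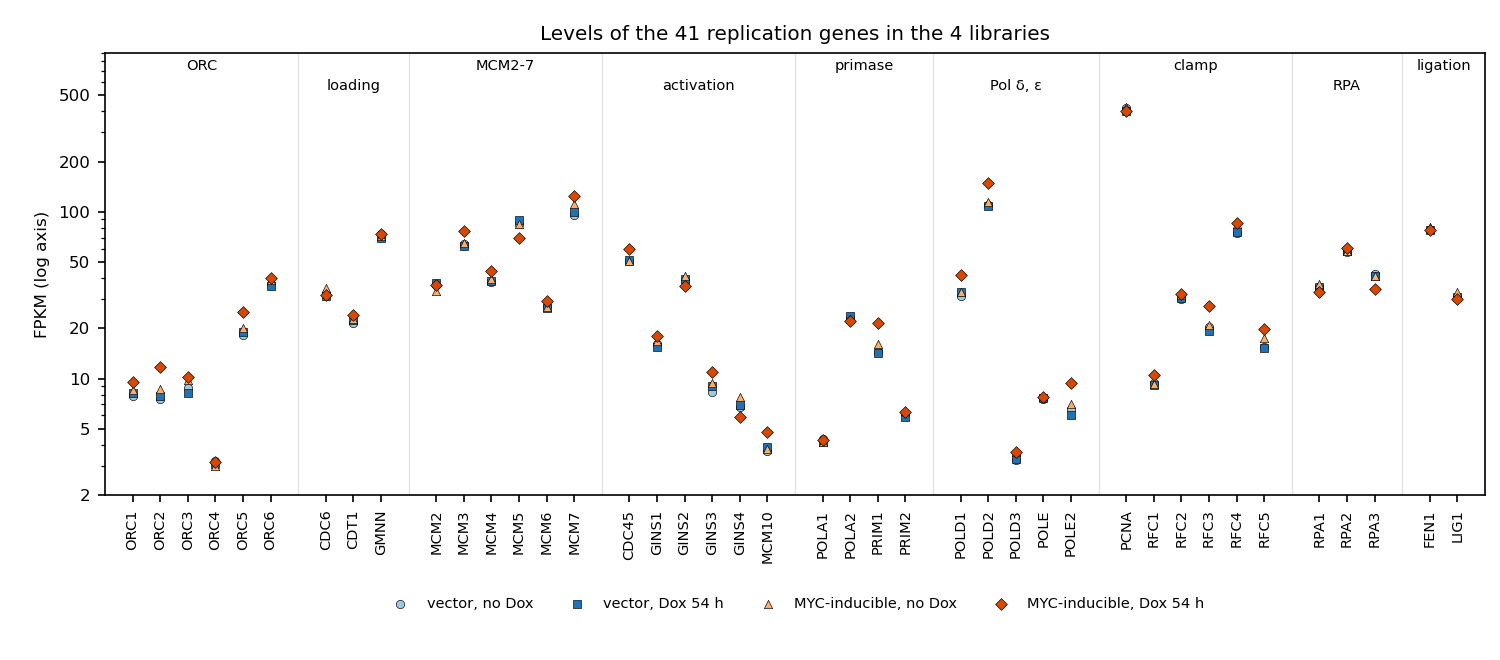
FPKM values (log axis) of the 41 replication genes in the 4 libraries, 1 point per library, ordered by role. Points of a gene lie close together beside the range of levels between genes, which runs from a mean of 3.11 FPKM for ORC4 to 414 FPKM for PCNA.

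The sampling of fragments sets a floor on what these libraries can show. From the approximate depth and the length of the annotated transcript, the counting error of the log2 change in MYC cells was between 0.0140, for PCNA, and 0.0985, for PRIM2. It takes in fragment sampling alone, with no part for how cultures vary. In MYC cells 20 replication genes were higher and 8 lower by more than the approximate 95% counting interval, where all genes tested gave 33.6% and 39.3%. In vector cells 4 were beyond this interval, against 31.3% of all genes tested, and between the untreated lines 18 were, against 33.7%. With Dox in MYC cells, 25 genes lay above all 3 other libraries, 7 below them and 9 inside their range. Of all genes tested, 40.2% lay above and 42.9% below. In RNA from whole cultures, a change in the share of cells in S phase and a change in RNA per cell cannot be told apart.

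The promoters of some of these genes hold motif letters that the choice of genes did not use. Windows of 300 bases, from 250 before to 50 after the annotated start, were taken from RefSeq (table build GRCh38.p14) for 35 of the 41 genes, without MCM4, MCM5, GINS4, POLD3, RPA2 and RPA3, and were located in GRCh37 by exact match. Letters of the E2F motif (TTTCCCGC, TTTGGCGC, TTTCGCGC or TTTGCCGC, on either strand) occurred in 17 of the 35 windows, which is 48.6%. They occurred in 3.33% of 27305 promoter windows in the table and in 5.75% of the 8381 windows of genes tested. The E-box letters bound by MYC with its partner MAX (CACGTG, which reads the same on both strands) occurred in 5 of the 35 windows, or 14.3%, against 7.43% of all windows and 10.7% of those of genes tested. MCM2 and MCM7 held both motifs, and 15 of the windows held neither. Of 23 E2F matches, which can overlap each other, 15 began within 60 bases of the annotated start. Positions were not counted in the windows of other genes, so this is not shown to be particular to replication genes. A match describes letters in a window, not a bound site.

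The 5 windows are shown 5′ to 3′ because they span the patterns seen: the helicase genes with the densest matches (MCM2, MCM6, MCM7), the gene with E2F letters and the largest upward difference (POLE2), and the gene with the largest upward difference of the 41, which has no match (ORC2). They lie in GRCh37 at chr3:127317004-127317303 on the plus strand for MCM2, chr2:136633964-136634263 on the minus strand for MCM6, chr7:99698971-99699270 on the minus strand for MCM7, chr14:50154883-50155182 on the minus strand for POLE2 and chr2:201828334-201828633 on the minus strand for ORC2. Capitals mark the E-box and E2F letters.
MCM2: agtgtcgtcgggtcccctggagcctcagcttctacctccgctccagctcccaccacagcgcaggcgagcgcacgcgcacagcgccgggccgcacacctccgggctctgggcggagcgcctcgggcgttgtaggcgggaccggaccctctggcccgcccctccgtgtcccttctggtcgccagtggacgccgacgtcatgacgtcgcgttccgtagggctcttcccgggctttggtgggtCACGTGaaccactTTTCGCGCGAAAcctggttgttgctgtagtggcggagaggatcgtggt
MCM6: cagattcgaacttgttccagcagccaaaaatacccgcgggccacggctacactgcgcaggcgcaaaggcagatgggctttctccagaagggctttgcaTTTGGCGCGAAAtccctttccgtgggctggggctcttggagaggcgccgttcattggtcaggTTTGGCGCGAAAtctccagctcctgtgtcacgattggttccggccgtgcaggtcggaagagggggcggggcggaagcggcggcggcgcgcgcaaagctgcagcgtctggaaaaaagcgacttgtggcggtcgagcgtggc
MCM7: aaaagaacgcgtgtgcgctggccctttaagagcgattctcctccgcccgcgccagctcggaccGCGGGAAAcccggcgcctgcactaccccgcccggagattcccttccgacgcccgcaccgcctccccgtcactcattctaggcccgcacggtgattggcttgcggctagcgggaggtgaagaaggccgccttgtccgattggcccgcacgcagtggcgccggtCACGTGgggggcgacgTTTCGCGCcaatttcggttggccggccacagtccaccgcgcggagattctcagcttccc
POLE2: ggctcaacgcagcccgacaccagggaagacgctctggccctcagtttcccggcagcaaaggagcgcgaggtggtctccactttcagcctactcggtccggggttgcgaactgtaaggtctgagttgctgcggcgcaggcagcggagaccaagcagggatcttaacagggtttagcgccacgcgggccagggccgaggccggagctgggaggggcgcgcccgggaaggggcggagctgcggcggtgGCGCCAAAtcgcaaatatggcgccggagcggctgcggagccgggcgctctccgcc
ORC2: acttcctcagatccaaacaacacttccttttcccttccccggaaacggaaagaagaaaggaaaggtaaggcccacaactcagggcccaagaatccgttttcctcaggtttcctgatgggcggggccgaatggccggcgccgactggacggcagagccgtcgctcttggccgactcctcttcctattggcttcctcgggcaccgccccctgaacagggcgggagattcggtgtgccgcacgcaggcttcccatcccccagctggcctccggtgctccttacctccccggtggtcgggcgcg

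In MCM6 the letters TTTGGCGC and, on the other strand, TTTCGCGC overlap, and this arrangement occurs at both match sites of the window. In MCM2 the E-box letters lie just before a pair of overlapping TTTCGCGC matches on opposite strands. With Dox in MYC cells, the median log2 change was 0.09 for the 17 replication genes with E2F letters and 0.17 for the 18 without. Over all genes tested the medians were 0.00 for 482 genes with E2F letters and -0.03 for 7899 without. For E-box letters the medians over all genes tested were 0.04 for 893 genes with them and -0.03 for 7488 without, and among replication genes 0.06 for 5 with them and 0.12 for 30 without. For both motifs, the replication gene medians leave out the genes without a window, among them GINS4, MCM5 and RPA3. These had the largest falls of the 41 genes, with log2 changes of -0.40, -0.29 and -0.26.

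All 6 ORC genes were above their untreated level under Dox in MYC cells, with a median log2 change of 0.12, although ORC3 and ORC6 turned lower with library sums made equal. ORC2, at chr2:201773700-201828403 of GRCh37, encodes a core subunit of the complex and had 7.55 FPKM in untreated vector cells, 7.86 FPKM in Dox-treated vector cells, 8.68 FPKM in untreated MYC cells and 11.7 FPKM in Dox-treated MYC cells. The last library stood above the other 3. The log2 change, 0.43 with an error from counting of 0.0491, was the largest in size among the 41 genes. ORC2 exons overlap a non-coding gene on the opposite strand. A difference as large upward was seen in 11.1% of all genes tested. ORC5, an ATPase-fold subunit, had 18.3, 18.9, 20.1 and 25.2 FPKM in the same order, a log2 change of 0.32 that stopped just short of the lower threshold. ORC1, the subunit that appears at the end of mitosis and is degraded in S phase in human cells, had 7.84, 8.18, 8.48 and 9.50 FPKM. Its log2 change was 0.16 under Dox in MYC cells and 0.06 in vector cells. ORC3, ORC4 and ORC6 had log2 changes of 0.05, 0.07 and 0.04, within the counting interval.

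Levels per length differed widely within the ORC. ORC6, the smallest and least tightly bound subunit, had the highest values, from 35.8 to 40.1 FPKM, and ORC4 the lowest, from 3.0 to 3.20 FPKM. The ratio between them was 11.5 to 12.96 across the libraries. ORC1, ORC2 and ORC3 lay between 7.55 and 11.7 FPKM, and their order changed from library to library. ORC2 was the lowest of the 3 in vector cells in both libraries and the highest of the 3 in Dox-treated MYC cells.

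The factors that load the helicase differed little between libraries. CDC6, the ATPase that binds ORC and recruits MCM2-7, had 32.1 FPKM in untreated vector cells, 31.4 FPKM in Dox-treated vector cells, 34.9 FPKM in untreated MYC cells and 31.8 FPKM in Dox-treated MYC cells. Its log2 change of -0.13 in MYC cells started from the highest of the 4 values, and the last library lay within the range of vector cells. CDT1, the MCM chaperone that geminin inhibits, had 21.5, 22.4, 22.7 and 24.1 FPKM in the same order, with log2 changes of 0.09 in MYC cells and 0.06 in vector cells. GMNN, which encodes geminin, had 73.3, 69.8, 71.2 and 74.1 FPKM, with log2 changes of 0.06 and -0.07. The ratio of CDT1 to GMNN, which does not depend on how libraries are scaled, was 0.294 in vector cells and 0.325 in Dox-treated MYC cells, and 0.321 and 0.319 in the libraries between.

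Within the MCM2-7 helicase, MCM5 went against the other subunits. Of the 6 genes, 5 were higher under Dox in MYC cells by log2 changes of 0.12 to 0.23, and MCM5 was lower. These directions were the same under each scaling tried. MCM5, at chr22:35796127-35821424, had 84.3 FPKM in untreated vector cells, 89.6 FPKM in Dox-treated vector cells, 84.8 FPKM in untreated MYC cells and 69.4 FPKM in Dox-treated MYC cells. The last value lay below the 3 others, and the log2 change was -0.29 with a counting error of 0.0198. In vector cells the change was 0.09 with a counting error of 0.0194, in the opposite direction. A fall as large as that of MCM5 in MYC cells was seen in 24.0% of all genes tested. MCM3, the MCM5 neighbour in the hexamer ring, had 63.8, 62.6, 65.4 and 76.7 FPKM in the same order, a log2 change of 0.23 in MYC cells and -0.03 in vector cells. The ratio of MCM5 to MCM3 was 1.32, 1.43 and 1.3 in the first 3 libraries and 0.905 in Dox-treated MYC cells, so that their order turned round in that library.

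The other helicase subunits kept their order in all 4 libraries. MCM7 was the highest, with 95.3, 99.9, 112 and 124 FPKM. It differed by 0.23 (log2) between the untreated lines, which was more than its change of 0.15 under Dox in MYC cells. MCM4 had 37.8, 38.6, 39.7 and 43.9 FPKM, with a log2 change of 0.15. MCM2 had 36.5, 37.6, 33.5 and 36.4 FPKM. Its log2 change of 0.12 started from the lowest of the 4 values, and the last library lay below both libraries of vector cells. MCM6 was the lowest subunit, with 26.4 to 29.2 FPKM, and had a log2 change of 0.12. Summed over the 6 genes, the level was 345 FPKM in untreated vector cells, 355 FPKM in Dox-treated vector cells, 362 FPKM in untreated MYC cells and 379.8 FPKM in Dox-treated MYC cells. MCM7 shares exon sequence with AP4M1 on the opposite strand and with MIR93, and whether counting used the strand is not stated in the sources used here.

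The genes that turn the loaded helicase into an active one split in direction. CDC45, MCM10, GINS1 and GINS3 were higher under Dox in MYC cells, and GINS2 and GINS4 were lower, under each scaling tried. GINS4, at chr8:41386737-41402549, had 6.79 FPKM in untreated vector cells, 6.95 FPKM in Dox-treated vector cells, 7.78 FPKM in untreated MYC cells and 5.89 FPKM in Dox-treated MYC cells. The last value was the lowest, and the log2 change was -0.40 with a counting error of 0.0642. Against Dox-treated vector cells the log2 difference was -0.24. A fall as large as that of GINS4 with Dox in MYC cells was seen in 16.7% of all genes tested. GINS4 exons overlap non-coding genes on the opposite strand. GINS2 had 38.7, 39.3, 41.3 and 36.1 FPKM, a log2 change of -0.19. GINS1 had 16.2, 15.5, 16.7 and 18.0 FPKM, a log2 change of 0.11, and GINS3 had 8.35, 9.04, 9.36 and 10.9 FPKM, a log2 change of 0.22. The 4 GINS proteins form a complex in which each is present once, and their log2 changes spanned from -0.40 to 0.22.

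CDC45, which holds MCM2-7 and GINS together in the moving helicase, had 50.9, 51.5, 50.7 and 59.99 FPKM. The first 3 libraries differed by less than the last from any of them, and the log2 change was 0.24 with a counting error of 0.0316. MCM10, at chr10:13203558-13253110, is needed for the firing of the assembled helicase and had 3.66, 3.89, 3.77 and 4.79 FPKM. Its log2 change was 0.34 in MYC cells, with a counting error of 0.0733, and 0.09 in vector cells. A difference as large upward was seen in 16.02% of all genes tested.

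**Figure D2:**
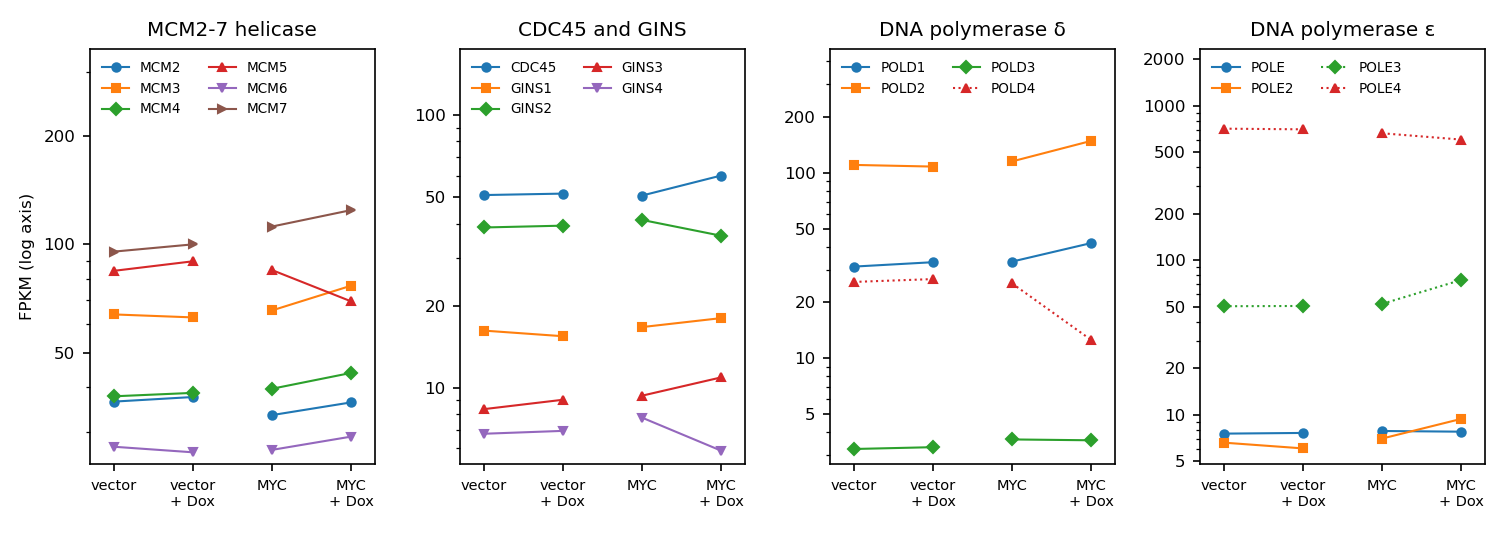
FPKM values (log axis) of the subunits of MCM2-7, of CDC45 and GINS and of DNA polymerases δ and ε in the 4 libraries, with lines joining the libraries of a cell line and dotted lines for subunits outside the 41 genes. MCM5 and MCM3 exchange order in Dox-treated MYC cells, as do POLE and POLE2, while POLD4 is lower in that library.

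In polymerase α-primase, which lays the RNA-DNA primers, a single subunit stood out. PRIM1, the catalytic primase subunit at chr12:57124222-57146158, had 14.5 FPKM in untreated vector cells, 14.2 FPKM in Dox-treated vector cells, 16.1 FPKM in untreated MYC cells and 21.4 FPKM in Dox-treated MYC cells. The last library was above the other 3, with a log2 change of 0.41 and counting error of 0.0628, against -0.03 in vector cells. PRIM1 exons overlap exons of NACA on the same strand by up to 139 bases, and reads could have been shared. POLA1, the catalytic polymerase subunit, had 4.14 to 4.32 FPKM and POLA2, its partner, 22.0 to 23.6 FPKM, with log2 changes of 0.05 and -0.05. POLA2 exons overlap another protein-coding gene model on the same strand by up to 444 bases. PRIM2, the large primase subunit, had a log2 change of -0.01 and overlaps a near-identical pseudogene model, PRIM2BP, so its 5.88 to 6.36 FPKM are uncertain. The median of the 4 genes was 0.02, and it became -0.03 with library sums made equal.

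For the polymerases of the moving fork, the subunits of each enzyme did not all move together. POLD1, the catalytic subunit of polymerase δ at chr19:50887461-50921275, had 31.2, 32.9, 33.2 and 41.8 FPKM in the order untreated and Dox-treated vector cells, then untreated and Dox-treated MYC cells. Its log2 change was 0.33 in MYC cells and 0.08 in vector cells, and its exons overlap another protein-coding gene model on the same strand by up to 133 bases. POLD2, its accessory subunit at chr7:44154230-44163957, had 110.4, 108, 115 and 149 FPKM, with log2 changes of 0.37 and -0.03. For both genes the last library lay above the 3 others. POLD3, which contacts PCNA, had 3.23 to 3.64 FPKM and a log2 change of -0.01. The fourth subunit, POLD4, is outside the 41 genes and had 25.8, 26.7, 25.3 and 12.5 FPKM, a log2 change of -1.01. The ratio of POLD2 to POLD1 was 3.28 to 3.56 in all 4 libraries.

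For polymerase ε, POLE, the catalytic subunit, had 7.53 to 7.83 FPKM and a log2 change of -0.01 under Dox in MYC cells. POLE2, its second subunit at chr14:50110273-50155140, had 6.58 FPKM in untreated vector cells, 6.04 FPKM in Dox-treated vector cells, 7.0 FPKM in untreated MYC cells and 9.38 FPKM in Dox-treated MYC cells. The log2 change was 0.42 in MYC cells, with a counting error of 0.0871 on approximately 493 fragments without Dox, and -0.12 in vector cells, with a counting error of 0.103. The ratio of POLE2 to POLE was 0.874, 0.794 and 0.894 in the first 3 libraries and 1.21 in Dox-treated MYC cells. The histone-fold subunits lie outside the 41 genes, and POLE4 was picked after its values were seen. POLE3 had 50.3, 50.5, 52.1 and 74.4 FPKM, a log2 change of 0.51, and POLE4 had 710.4, 703, 663 and 604 FPKM, a log2 change of -0.14. When Dox-treated MYC cells were set against Dox-treated vector cells, POLE2 and PRIM1 were the genes of the 41 that stood at least 1.5-fold higher, by log2 differences of 0.63 and 0.59. None stood 1.5-fold lower, and 6.5% and 8.62% of all genes tested did so in the 2 directions.

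PCNA, the sliding clamp, was the highest of the 41 genes. It had 417 FPKM in untreated vector cells, 404 FPKM in Dox-treated vector cells, 428 FPKM in untreated MYC cells and 404 FPKM in Dox-treated MYC cells. The log2 change of -0.08 in MYC cells had a counting error of 0.0140, yet the last library lay within the range of vector cells. PCNA has processed pseudogene copies, and how reads were shared with them is not stated in the sources used here. Among the subunits of RFC, the clamp loader, RFC3, at chr13:34392206-34540695, had 20.3, 19.2, 20.9 and 27.2 FPKM. Its log2 change was 0.38 in MYC cells, with a counting error of 0.0435, and -0.08 in vector cells. RFC1, the large subunit, and RFC5 had log2 changes of 0.17 each, and RFC2 and RFC4 of 0.02 each, which turned lower with library sums made equal. RFC4 had 75.1, 76.2, 84.5 and 85.9 FPKM, with both MYC libraries above both vector libraries. The untreated libraries differed by 0.17 (log2), and the change with Dox was within the counting interval. RFC5 had 15.4, 15.2, 17.5 and 19.7 FPKM and showed both a difference between the untreated lines, of 0.18, and one with Dox.

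Of the 5 genes acting on single strands and on Okazaki fragments, RPA1, RPA3 and LIG1 were lower under Dox in MYC cells beyond the counting interval, as were 39.3% of all genes tested, and RPA2 and FEN1 stayed within it. RPA3, the smallest subunit of the single-strand binding protein RPA, had 42.5, 41.1, 41.5 and 34.5 FPKM. The last library was below the other 3, with a log2 change of -0.26 and counting error of 0.0369. A fall as large was seen in 26.1% of all genes tested. RPA1, the large DNA-binding subunit, had 35.2, 35.6, 36.7 and 33.1 FPKM, a log2 change of -0.15, and RPA2 had 57.3, 58.5, 58.5 and 60.7 FPKM, a log2 change of 0.05. RPA3 exons overlap those of UMAD1, and RPA1 exons those of SMYD4, on the opposite strand. LIG1, the ligase that seals Okazaki fragments, had 30.2, 30.7, 33.2 and 30.2 FPKM. Its log2 change of -0.14 in MYC cells followed an untreated value above that of vector cells by 0.13 (log2), and FEN1, the flap nuclease, had 77.6 to 80.8 FPKM and a log2 change of -0.05.

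Other lists of the cell cycle were set beside the 41 genes. Of 35 further replication factors that passed the filter, none was 1.5-fold higher and 2 were 1.5-fold lower under Dox in MYC cells, against 5.9% and 8.85% of all genes tested, with a median log2 change of 0.01 that became -0.04 with library sums made equal. The lower ones were POLD4, described above, and ASF1B, a histone chaperone of new chromatin, which had 53.3, 54.7, 59.6 and 38.5 FPKM, a log2 change of -0.63. The highest were TIPIN, the partner of TIMELESS in fork protection, with 13.5, 15.1, 14.4 and 21.4 FPKM and a log2 change of 0.57, and POLE3. In vector cells the changes were 0.04 for ASF1B and 0.16 for TIPIN.

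The 8 genes of deoxynucleotide supply had a median log2 change of -0.24 under Dox in MYC cells, against -0.03 over all genes tested. None passed 1.5-fold, and 2 passed the lower threshold downward, which 21.4% of all genes tested did. TK1, thymidine kinase, had 102, 106, 100.3 and 79.1 FPKM, a log2 change of -0.34, and DCK, deoxycytidine kinase, 13.8, 13.3, 14.6 and 11.03 FPKM, a log2 change of -0.40. The highest were DUT and TYMS, with log2 changes of 0.01 and 0.00. The median stayed below 0 under each scaling tried, between -0.29 and -0.19. With Dox-treated vector cells as reference it was -0.11, against -0.01 over all genes tested. Untreated MYC cells stood above untreated vector cells in this list by a median log2 difference of 0.10.

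The 12 E2F and RB family genes that passed the filter spread in both directions, with a median log2 change of -0.11 that became 0.11 when genes under a mean of 5 FPKM were left out. RB1, the pocket protein that restrains E2F, had 6.42, 5.97, 6.94 and 4.13 FPKM, and its log2 change of -0.73 was past 1.5-fold, the single gene of this list to pass it, against 8.85% of all genes tested downward. E2F7, a repressor, had a log2 change of -0.52. TFDP1, the dimer partner of E2F, had 37.8, 33.8, 38.6 and 55.0 FPKM, a log2 change of 0.51, and E2F4 one of 0.40. E2F1, an activator of S phase genes that was picked after its values were seen, had 65.7, 63.9, 63.3 and 58.1 FPKM. Among 18 genes of G2 phase and mitosis, the median log2 change was 0.04 in both lines, or -0.01 in MYC cells with library sums made equal, and none passed 1.5-fold. BUB1B and PLK1 were the highest, at 0.51 and 0.48, and TOP2A and MKI67 the lowest, at -0.23 and -0.18. MKI67, a general marker of cycling cells, had 8.04, 8.39, 8.23 and 7.24 FPKM.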

How the data were processed

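RNA was measured in 4 SK-MEL-28 libraries, 1 for each combination of cell line (empty vector or MYC-inducible) and Dox (none or 54 h). The authors deposited 1 table of FPKM values with 27032 rows. The submitters' processing notes name TopHat2 2.0.14 and Cufflinks, and the genome was hg19 (GRCh37). The gene annotation and the use of strand are not given in the sources used here. FPKM keeps no counts, so depth is approximate: it was read from the steps between low values, where 42.2% of 2028 genes were whole multiples within 1.2%, and 86 genes set the scale.

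Rows of 1 symbol were summed (609 symbols, none among the 41 genes) and 1 nameless row was dropped. Genes whose mean reached 1 FPKM were kept (11147 genes, all 41 included). A change is the difference of log2(FPKM + 0.1) between 2 libraries. The pseudocount understates the change of low genes. A change was called at 1.5-fold, with a log2 change of 0.32 as a lower threshold, and no test was possible with 1 library per condition. Counting errors came from FPKM, GENCODE 44 transcript length and depth, and cover fragment sampling only. They were available for 10217 genes.

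The genes and lists were chosen with earlier results of these data known. Values in all libraries are given for the gene with the largest change in each role group, for genes past 1.5-fold in any comparison and for genes against their group's median by over 1.2-fold, with others added. From each other list the 2 genes furthest up and down were named, with those picked later said to be so. Pseudocounts, filters, scalings, thresholds, the reference library and the treatment of repeated symbols were varied. The scripts (Python 3.11.15, numpy 2.4.6, pandas 2.3.3, matplotlib 3.10.9) were tested on simulated data.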

Additional observations from a re-analysis of the deposited data

Results flagged for a closer look

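MCM5 was singled out because Dox moved it in opposite directions in the 2 lines, each time beyond the approximate 95% counting interval. Its log2 change was 0.09 in vector cells and -0.29 in MYC cells, a difference of -0.38. The difference was not tested, since each condition has 1 library. MCM5 was the one gene of the 41 for which this held. How many of all genes tested meet the same rule was not counted, so MCM5 is not shown to be unusual by it.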

How the results depend on the processing

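No paired analysis was possible because a single library stands for a condition and the labels share no replicate numbers. The count of replication genes past 1.5-fold under Dox in MYC cells was 0, and it became 2 with Dox-treated vector cells as reference and 8 at the lower threshold, a log2 change of 0.32. It was 0 under the other alternatives run. The 8 were 7 higher and 1 lower, which became 4 and 2 with libraries rescaled to the same sum and 8 and 1 with median ratio scaling. The median log2 change in MYC cells ran from 0.03, with libraries rescaled to the same sum, to 0.14, with Dox-treated vector cells as reference. Of 58 summary values recomputed, 56 stayed within the limits set for them (for medians, the robust SD over all genes between untreated lines, 0.106 log2, and for single genes the counting interval). The limit for medians is larger than the medians over the 41 genes themselves. A median could therefore reach 0 and stay within it, so this count does not show that signs were kept. Of 779 values of single genes and role groups, 33 moved beyond theirs, 21 of them with Dox-treated vector cells as reference. Filters and the treatment of repeated symbols cannot alter the value of a single gene that is kept. The agreement of single genes under those settings was fixed in advance. Rescaling to the same sum moved the median of all genes tested from -0.03 to -0.07 and turned the sign of ORC3, ORC6, RFC2 and RFC4. Median ratio scaling turned that of PRIM2, POLD3 and POLE. The reference of Dox-treated vector cells turned that of CDC6, MCM2, PRIM2, POLD3, POLE, PCNA and FEN1. A 5 FPKM filter kept 37 of the 41 genes. Without replicate cultures, a difference of the sizes seen here cannot be set against the spread between cultures. Exons of 20 of the 41 genes overlap those of another annotated gene, 12 of them a protein-coding one.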

Other observations

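Subunits of some other replication complexes, picked after their values were seen, moved apart from each other under Dox in MYC cells. In RNase H2, which removes RNA from DNA, the log2 change was -0.17 for RNASEH2A, 0.40 for RNASEH2B and -0.28 for RNASEH2C. In the fork protection pair, it was -0.16 for TIMELESS and 0.57 for TIPIN. In the kinase that fires origins, it was 0.37 for the activator DBF4 and 0.01 for the catalytic subunit CDC7. Other groups of the same list stayed closer together. The log2 change was 0.05 for CHAF1A and -0.01 for CHAF1B, of chromatin assembly. For the alternative clamp loader it was -0.01 for CHTF18, -0.06 for CHTF8 and 0.11 for DSCC1.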
